A study of Mus musculus with 18 samples.

Results

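The 10 genes described here mark macrophages of the cochlea: Cx3cr1, Csf1r, Cd68, C1qa, C1qb, C1qc, Adgre1, Mrc1, Lyve1 and Tmem119. They were taken by symbol from a deposited table of 46583 genes, in which each stood on 1 row, and all 10 passed the filter on low counts that left 17901 genes for testing. The series measured RNA in the cochlea of mice aged 4 weeks, cut along its sound-frequency axis into base, middle and apex. Control animals, labelled WT and untreated, were set against animals labelled Fst cKO, in which follistatin, a secreted protein that binds activins, was conditionally knocked out. This gave 6 groups (control base, control middle, control apex, cKO base, cKO middle and cKO apex), and per the labels each group was 1 RNA pool split into 3 technical libraries. The driver of the knock-out, the number of animals in a pool and their sex were not given in the sources used here. A difference between groups is therefore a difference between pools, and the p-values carry the spread between technical libraries only, not between animals.

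Macrophages live throughout the adult cochlea, in the spiral ligament, the stria vascularis, the spiral ganglion and the bony wall. They depend on signalling through the receptor CSF1R, whose ligands are CSF1 and IL-34, and they carry the fractalkine receptor CX3CR1, whose ligand CX3CL1 is made by neurons and other cells. They clear debris, make the C1q proteins that start the classical complement pathway, and contact vessels, where some of them carry the scavenger and hyaluronan receptors MRC1 and LYVE1. C1QA, C1QB and C1QC join into one hexameric recognition molecule, and tissue macrophages are a main source of all of these subunits. Several genes on the list are also used by other cells: Lyve1 by lymphatic endothelium, Mrc1 by some endothelium, and Tmem119, best known as a microglial marker in the brain, by osteoblasts.

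The C1q genes lie side by side on the minus strand of chromosome 4 in GRCm38/mm10: C1qb at chr4:136880129-136886187, C1qc at chr4:136889804-136893065 and C1qa at chr4:136895917-136898803. As examples from these neighbouring genes, the promoters of C1qb (chr4:136886151-136886450, minus strand) and C1qc (chr4:136892865-136893164, minus strand) are shown, from RefSeq on GRCm38.p6, 5′ to 3′. Capitals mark the core letters GAGGAA of the binding motif of PU.1, the myeloid transcription factor encoded by Spi1, on either strand, and in C1qc the longer form GAGGAAGT, which contains the core and reads ACTTCCTC on the printed strand.
C1qb: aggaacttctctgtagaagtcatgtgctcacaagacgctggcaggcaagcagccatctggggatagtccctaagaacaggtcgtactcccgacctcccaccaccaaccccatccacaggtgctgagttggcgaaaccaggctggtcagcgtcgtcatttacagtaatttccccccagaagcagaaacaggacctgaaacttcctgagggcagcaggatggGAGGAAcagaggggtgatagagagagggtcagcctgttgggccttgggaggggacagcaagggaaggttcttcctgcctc
C1qc: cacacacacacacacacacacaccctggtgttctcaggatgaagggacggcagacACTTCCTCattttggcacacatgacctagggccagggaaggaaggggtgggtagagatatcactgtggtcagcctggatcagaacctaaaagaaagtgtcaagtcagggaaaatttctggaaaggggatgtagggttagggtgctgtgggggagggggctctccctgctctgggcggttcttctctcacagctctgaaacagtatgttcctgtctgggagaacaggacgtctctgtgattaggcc

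Promoter sequences were matched for 5 of the 10 genes, Mrc1, C1qb, C1qc, Cx3cr1 and Cd68. GAGGAA stood in 4 of these 5, with Cx3cr1 as the one without it, and in 28.3% of 32851 promoters of the same length searched on both strands. The longer GAGGAAGT stood in C1qc among the 5 and in 3.2% of all promoters. The AP-1 letters TGANTCA stood in Cd68 and in 7.81% of all, and the Maf half-site TGCTGA stood in C1qb and in 19.5% of all. A letter match of this kind describes the sequence and does not show binding.

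The 18 libraries held 24446760 to 33732726 counts each (median 28749804), and control base replicate 3 was the shallowest. Levels are given as CPM, the counts of a gene per 1000000 counts of its library. A count of 0 allows up to 3 counts, or 0.0889 to 0.123 CPM, a floor that covers counting error only. Every member was above it in all 18 libraries. Fst itself differed between cKO and control by a log2 change of -0.22 in the base, -1.10 in the middle and -1.29 in the apex (edgeR adjusted p = 0.308, 2.38e-11 and 1.51e-18), so the knock-out pool of the base is not separated from its control by this gene. The pools also differed in genes of neighbouring tissues. The summed level of 10 neutrophil genes ran from 88.7 CPM in control apex to 341 in cKO base, of 6 red blood cell genes from 322 in control apex to 1347 in cKO base, and of 10 oligodendrocyte and astrocyte genes from 55.4 in cKO apex to 247 in control middle. The sum of 8 cerebellar neuron genes ran from 222 CPM in control apex to 601 in cKO base, of 5 airway epithelium genes from 15.5 in control middle to 354 in cKO apex, and of 8 osteoclast genes from 33.4 in control apex to 63.2 in control base. The part of these tissues in the member results was not tested, and their values are given beside the results they move with.

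On the authors' FPKM scale, which is per length and so allows genes to be compared, C1qb stood highest at a mean of 26.4 FPKM over the 6 pools, followed by C1qa at 20.6, C1qc at 20.2 and Tmem119 at 18.6. Csf1r stood at 13.1 FPKM, Cd68 at 5.28, Cx3cr1 at 5.25, Mrc1 at 3.81, Adgre1, the gene of F4/80, at 2.95, and Lyve1 at 0.674. The C1q messages were present in similar amounts per length: relative to C1qb, C1qa ran from 0.714 to 0.842 and C1qc from 0.697 to 0.804 over the pools. All 18 genes of a wider myeloid list, among them Ptprc (CD45), Spi1 and Tyrobp, were also detected and tested. Neutrophils and monocytes share genes of that list, so their detection does not identify macrophages. Ptprc ran from 5.96 CPM in both apex pools to 11 in control middle.

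**Figure D1:**
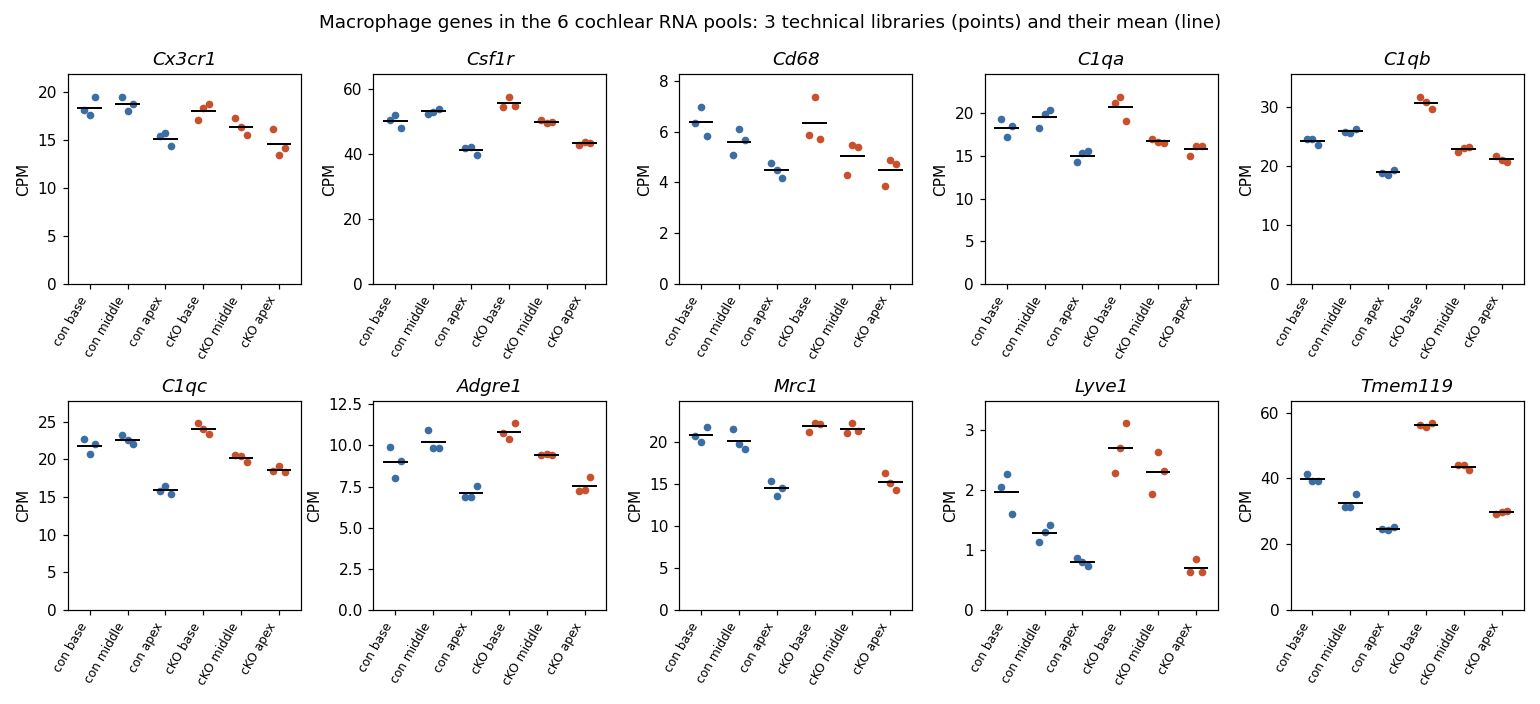
CPM of each of the 10 macrophage genes (vertical axis, from 0) in the 6 RNA pools (horizontal axis), with control (con) in blue and cKO in red; points are the 3 technical libraries of a pool and lines their mean. The apex pools are the lowest pools in every panel, and Lyve1 and Tmem119 span the widest range, 3.83-fold and 2.27-fold between their lowest and highest pool.

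The macrophage genes were lower in the apex. For all 10 genes the lowest 2 of the 6 pools were control apex and cKO apex, and 8 of the 10 were highest in cKO base, the pool in which the neutrophil, red blood cell and cerebellar sums were highest too, with Cx3cr1 highest in control middle and Cd68 highest in control base. Between highest and lowest pool, 8 genes spanned 1.29-fold to 1.63-fold, Tmem119 2.27-fold and Lyve1 3.83-fold. In bulk RNA, fewer macrophages in a pool and less RNA of these genes per macrophage cannot be told apart.

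Csf1r encodes the growth factor receptor of macrophages. Its libraries held 50.4, 52 and 47.9 CPM in control base, 52.2, 52.8 and 53.9 in control middle and 41.8, 41.9 and 39.5 in control apex. The cKO libraries held 54.4, 57.5 and 54.5 CPM in base, 50.2, 49.3 and 49.6 in middle and 42.7, 43.6 and 43.3 in apex. The apex libraries of both genotypes were below all base and middle libraries, while control base and cKO middle overlapped. Csf1r was lower in apex than in base by a log2 change of -0.36 ± 0.032 in control and -0.40 ± 0.032 in the cKO (standard error of the edgeR fit; adjusted p = 6.1e-12 and 4.36e-13). Csf1r (plus strand of its chromosome) shares 873 exon bases with Hmgxb3 on the other strand, and the use of strand in the counting was not given in the sources used here, so reads of that stretch cannot be told apart.

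Cx3cr1 varied least. Its pool means were 18.3 ± 0.973, 18.7 ± 0.769 and 15.1 ± 0.72 CPM in control base, middle and apex, and 18 ± 0.874, 16.4 ± 0.901 and 14.5 ± 1.36 in the cKO (SD, n = 3 libraries). Each pool overlapped its neighbour in the order of levels, and the whole range was 1.29-fold. Apex against base gave -0.34 ± 0.059 in control and -0.35 ± 0.062 in the cKO, both past the adjusted p of edgeR (7.03e-06 and 1.11e-05). Adgre1, a surface marker of mature macrophages, ran from 7.11 ± 0.381 CPM in control apex to 10.8 ± 0.485 in cKO base. Cd68, a lysosomal glycoprotein of phagocytes, ran from 4.48 ± 0.307 CPM in control apex to 6.39 ± 0.575 in control base, and every neighbour in its order of pools overlapped.

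The C1q genes followed each other. C1qb libraries held 24.6, 24.5 and 23.6 CPM in control base, 25.7, 25.6 and 26.3 in control middle and 18.8, 18.4 and 19.4 in control apex. In cKO tissue these were 31.7, 30.9 and 29.6 CPM in base, 22.4, 23 and 23.3 in middle and 21.6, 21 and 20.7 in apex. No pool of C1qb overlapped the next in order, which ran from cKO base down through control middle, control base, cKO middle and cKO apex to control apex. C1qa and C1qc had the same order of pools by their means. So did Csf1r, which lies on another chromosome, so this order is not particular to the neighbouring C1q genes. C1qc ran from 15.9 ± 0.564 CPM in control apex to 24.1 ± 0.733 in cKO base, and C1qa from 15 ± 0.693 to 20.8 ± 1.46. Neighbours overlapped between control middle and control base for C1qc, and in 3 places for C1qa.

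Mrc1, the mannose receptor of resident and perivascular macrophages, had base and middle together and the apex apart. Its libraries held 20.7, 20 and 21.8 CPM in control base, 21.6, 19.7 and 19.1 in control middle and 15.3, 13.5 and 14.6 in control apex. Libraries of the cKO held 21.2, 22.3 and 22.2 CPM in base, 21.1, 22.2 and 21.3 in middle and 16.4, 15.2 and 14.3 in apex. All apex libraries were below all others, and base and middle overlapped.

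Lyve1 and Tmem119 had the widest ranges. Lyve1 was scarce, with 64, 70 and 39 counts in the libraries of control base, 33, 38 and 41 in control middle and 25, 23 and 21 in control apex. The cKO libraries held 59, 70 and 81 counts in base, 65, 89 and 78 in middle and 17, 23 and 17 in apex. These are 1.97 ± 0.343, 1.29 ± 0.137 and 0.801 ± 0.0716 CPM along the control cochlea and 2.7 ± 0.418, 2.3 ± 0.352 and 0.704 ± 0.128 CPM in the cKO. The apex pools overlapped each other and lay below every base and middle library, and cKO base, cKO middle and control base overlapped along that order. Tmem119 held 41.2, 39.2 and 39.2 CPM in control base, 31.4, 31.2 and 35.3 in control middle and 24.7, 24.4 and 25.2 in control apex. The cKO values were 56.2, 55.7 and 56.8 CPM in base, 44, 44 and 42.5 in middle and 29.2, 29.9 and 30 in apex. Its levels fell from base to apex within each genotype and were higher in the cKO pool of each region, with no overlap between any neighbouring pools.

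Control apex was compared with control base and control middle, which share the control apex pool, to describe these genes along the frequency axis. All 10 were lower in apex than in base at an adjusted p under 0.05 in edgeR, with a median log2 change of -0.48 against 0.00 over all tested genes. In the same comparison 25.8% of all tested genes were lower at that threshold, so passing the adjusted p is common where technical spread is this small. With a log2 change of at least 1 asked for as well, called below, 3.2% of tested genes were lower and 1 member was, Lyve1 at -1.38 ± 0.21 (adjusted p = 8.16e-07). On log2(FPKM + 1), which compresses scarce genes, its change was -0.47 and not called. Tmem119 followed at -0.76 ± 0.04, then Mrc1 and Cd68 at -0.59, C1qc at -0.52, C1qb at -0.43, Adgre1 at -0.41, Csf1r at -0.36, C1qa at -0.35 and Cx3cr1 at -0.34. Against middle, all 10 were again lower at the adjusted p (background 22.4%), with a median of -0.47, values from -0.73 for Lyve1 to -0.35 for Cx3cr1, and no call (background 3.22%). In that comparison all 10 had an unadjusted p under 0.05, as 51.1% of tested genes did. Middle and base of the control differed little: Lyve1 (-0.65 ± 0.19, adjusted p = 0.00681) and Tmem119 (-0.32 ± 0.037, adjusted p = 1.37e-08) were lower in middle, and the other 8 did not pass (background 31.5% in either direction). None was called there (background 2.73%), and 3 had an unadjusted p under 0.05, as 39.5% of tested genes did. Some lists of other cells were also lower in control apex than base at the adjusted p. Red blood cell genes were so in 6 of 6 cases (median -0.57), neutrophil genes in 8 of 10 (median -0.39) and osteoclast genes, which like macrophages use Csf1r, in 4 of 5 tested (median -1.5), and 6 oligodendrocyte and astrocyte genes were called lower. In control middle the neutrophil sum stood at 290 CPM, above base (107) and apex (88.7). The summed level of 8 blood endothelium genes went the other way, at 400 CPM in control base and 451 in control apex.

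In the cKO the apex was again the low end. All 10 genes were lower in cKO apex than in cKO base at the adjusted p (background 24.7%), with a median of -0.54. Lyve1 was called at -1.97 ± 0.21 (edgeR adjusted p = 5.32e-10; background of lower calls 3.81%), and Tmem119 fell short of the fold limit at -0.96 ± 0.037. Adgre1, C1qb, Mrc1 and Cd68 lay between -0.58 and -0.53, and C1qa, C1qc, Csf1r and Cx3cr1 between -0.44 and -0.35. From middle to apex of the cKO, 8 were lower at the adjusted p (background 25.2%), with Lyve1 called at -1.71 ± 0.21 (adjusted p = 1.4e-08; background of lower calls 2.93%). Tmem119 gave -0.56 and Mrc1 -0.50 there, while C1qa (-0.09) and Cd68 (-0.18) did not pass. From base to middle of the cKO, 8 were lower (background 22.9%), led by C1qb at -0.45 and Tmem119 at -0.40, with Lyve1 at -0.26 and Mrc1 at -0.05 not passing. On log2(FPKM + 1) the Lyve1 changes were -0.73 from base to apex and -0.59 from middle to apex, neither called. From base to middle no member was called (background 3.26% in either direction), and 8 had an unadjusted p under 0.05, as 51.7% of tested genes did. C1qb dropped from 30.7 to 22.9 CPM between base and middle of the cKO, while control base and middle held 24.2 and 25.9 CPM. Other cell types differed between the same cKO pools. From base to apex 9 of 10 neutrophil genes, 7 of 8 cerebellar neuron genes and 7 of 10 oligodendrocyte and astrocyte genes were called lower, and 6 of 6 red blood cell genes were lower at the adjusted p (median -0.91). The blood endothelium sum was again higher in the apex, at 412 CPM in cKO apex against 385 in cKO base.

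**Figure D2:**
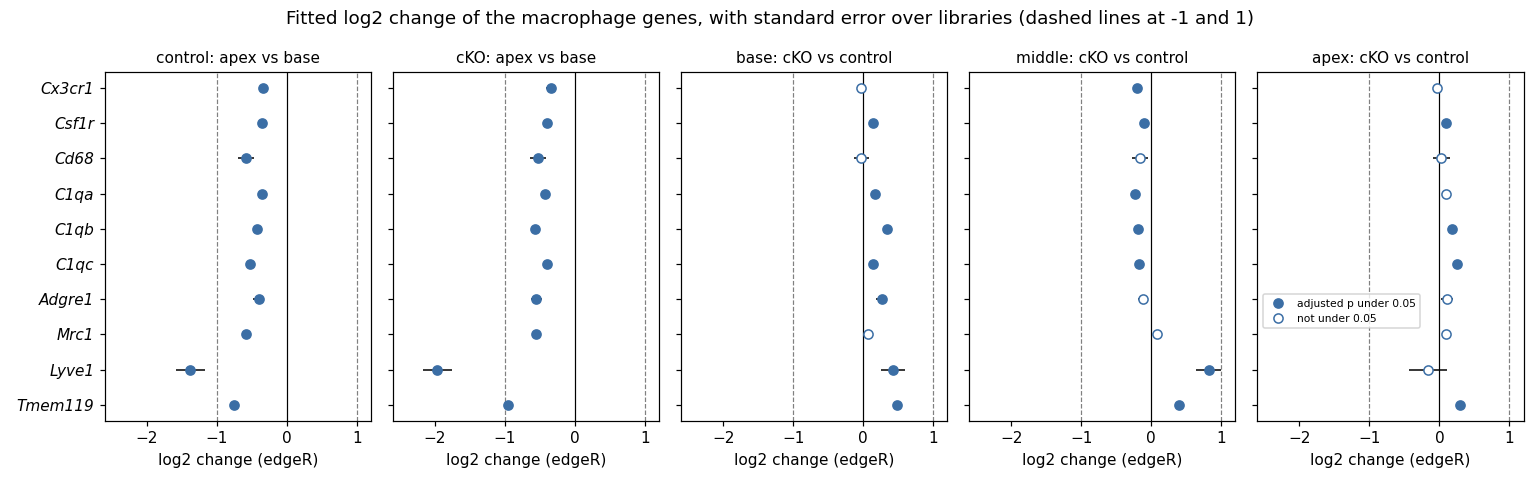
Fitted log2 change (horizontal axis) of each macrophage gene in 5 comparisons, with the standard error over libraries from edgeR; filled points have an adjusted p under 0.05, open points do not, and dashed lines stand at -1 and 1. Apex against base lies left of 0 for all 10 genes in both genotypes. The comparisons of cKO with control lie mostly right of 0 in base and apex and mostly left of it in the middle. Tmem119 lies right of 0 in each region.

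The comparison of cKO with control asked whether loss of follistatin in the cochlea went with a change in these genes. No member was called in any of the 3 regions, where 3.03% of tested genes in the base, 2.72% in the middle and 2.04% in the apex were called in either direction. DESeq2 called none either. An unadjusted p under 0.05 was reached by 7 members in the base, 7 in the middle and 4 in the apex, against 43.1%, 43.4% and 47.2% of tested genes. In the base, 7 were higher in the cKO at the adjusted p alone (background 16.5%): Tmem119 by 0.49 ± 0.034, Lyve1 by 0.43 ± 0.17, C1qb by 0.33 ± 0.038, Adgre1 by 0.26 ± 0.075, C1qa by 0.17 ± 0.054, and C1qc and Csf1r by 0.13. Cx3cr1 and Cd68 (-0.03) and Mrc1 (0.07) did not pass, and the median of the 10 was 0.15 against -0.02 over all genes. The summed neutrophil list stood at 341 CPM in cKO base against 107 in control base, the red blood cell list at 1347 against 451, and all 10 neutrophil genes and all 6 red blood cell genes were called higher there. So were 7 of 8 cerebellar neuron genes, whose sum was 601 CPM against 329.

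In the middle the direction differed between members. Lyve1 was higher in the cKO by 0.82 ± 0.18 and Tmem119 by 0.40 ± 0.035 (edgeR adjusted p = 0.000388 and 1.61e-11; background 17.9% higher). C1qa was lower by -0.24 ± 0.053, Cx3cr1 by -0.21 ± 0.056, C1qb by -0.19 ± 0.038, C1qc by -0.17 ± 0.043 and Csf1r by -0.10 ± 0.029 (background 17.7% lower), and the median of the 10 was -0.14. The neutrophil list stood at 255 summed CPM in cKO middle against 290 in control middle, and the oligodendrocyte and astrocyte list at 76.6 against 247. In the apex 4 were higher, Tmem119 by 0.29 ± 0.043, C1qc by 0.25 ± 0.049, C1qb by 0.18 ± 0.043 and Csf1r by 0.09 ± 0.033 (background 21.8%), and none was lower (background 18.8%). Lyve1 did not pass there (-0.16 ± 0.27, adjusted p = 0.674). All 6 red blood cell genes were called higher in cKO apex (795 against 322 summed CPM), all 10 neutrophil genes were higher at the adjusted p, and the airway sum was 354 against 24.2 CPM.

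Over the 6 pools, with counts of each pool summed and region as a factor, no gene of 19446 tested reached an adjusted p under 0.05 for genotype (background 0%), and 11% had an unadjusted p under 0.05. Tmem119 alone among the members was under that limit, with a log2 change of 0.39 ± 0.052 (edgeR adjusted p = 0.18). Its log2 change was positive in each of the 3 regions. Lyve1 gave 0.39 ± 0.22 (adjusted p = 0.574), and the other 8 lay between -0.09 and 0.11. Base, middle and apex may have been cut from the same cochleae, and animal-to-animal variation is not part of this fit. Its spread includes differences of the genotype effect between regions. Fst itself did not pass in this fit (-0.91 ± 0.22, edgeR unadjusted p = 0.0103, adjusted p = 0.343). A member that did not pass here is therefore not shown to be unchanged.

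Whether the genotype difference itself changed between regions was tested with interaction contrasts. Between apex and middle, 5 of 10 members differed at the adjusted p in edgeR (background 38%), and between middle and base 5 of 10 (background 33.4%). Between apex and base 1 did (background 24.8%). No interaction was called with the fold limit, for which 3.6%, 4.7% and 2.41% of tested genes passed. Lyve1 came close between apex and middle at -0.98 ± 0.32, and it was called without control middle replicate 3 (-1.05), control apex replicate 3 (-1.04), cKO middle replicate 1 (-1.09) or cKO apex replicate 2 (-1.14). C1qb had the widest swing between base and middle, from 0.33 higher to -0.19 in the cKO, a difference of -0.52 ± 0.053 (adjusted p = 5.04e-10). That standard error is smaller than counting error alone would give. C1qa, C1qc, Adgre1 and Csf1r swung the same way, whereas Mrc1 differed by 0.02 ± 0.071 (adjusted p = 0.884) and Tmem119 by -0.09 ± 0.049 (adjusted p = 0.198).

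To see how far the members kept a fixed proportion, each was divided by Csf1r within a library on the FPKM scale. For 7 of the other 9 members the log2 ratio moved by 0.135 to 0.347 over the 6 pools. Tmem119 moved by 0.75, from 0.13 in control apex to 0.87 in cKO base, and Lyve1 by 1.57, from -5.34 in cKO apex to -3.76 in cKO base. The widest SD between libraries of a pool was 0.11 for Tmem119 and 0.24 for Lyve1. These ratios are a description of how the members varied among themselves.

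**Figure D3:**
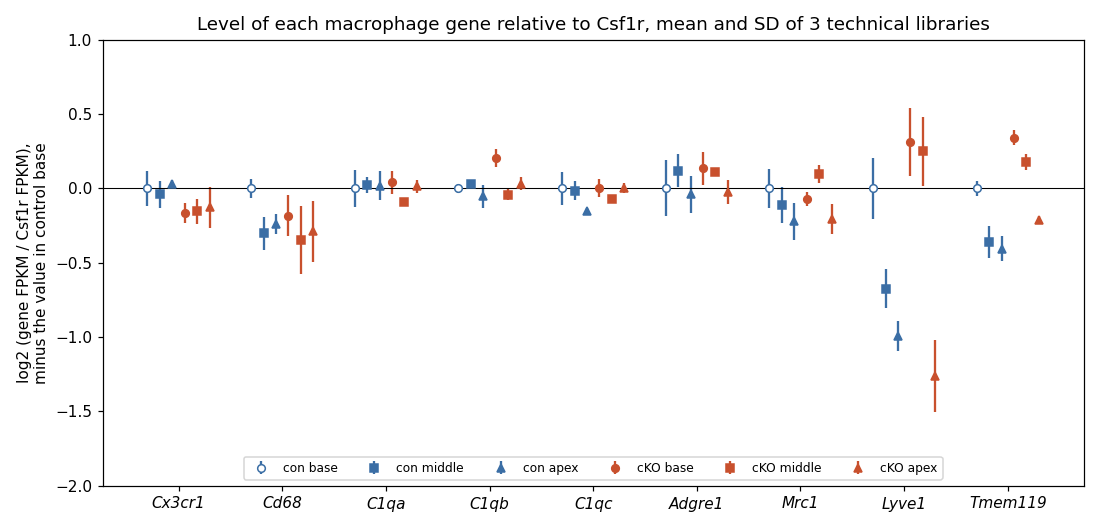
Log2 ratio of each macrophage gene to Csf1r within a library, on the FPKM scale, averaged over the 3 libraries of a pool and shown as the difference from control base (0 on the vertical axis) for each pool. Lyve1 falls furthest in the apex pools. Tmem119 lies above control base in cKO base and cKO middle, and below it in control middle and both apex pools. The other 7 genes stay within a narrower band.

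Genes that share a cell type with Tmem119 and Lyve1 were read beside them. P2ry12, a purinergic receptor of microglia, ran from 2.55 ± 0.205 CPM in control apex to 4.7 ± 0.376 in cKO base. It was lower in apex than in base in control (-0.75 ± 0.13, edgeR adjusted p = 7e-06), as was Tmem119. In the middle it was lower in the cKO (-0.34 ± 0.11, adjusted p = 0.016), where Tmem119 was higher. Of 9 tested genes in the microglia-enriched list, 6 were lower and 1 higher in control apex than base at the adjusted p (median -0.39; backgrounds 25.8% and 26.7%). Between genotypes, 2 were higher and 1 lower in the base (backgrounds 16.5% and 19.6%), 1 higher and 5 lower in the middle (17.9% and 17.7%), and none passed in the apex. Brain tissue also holds microglia, and the oligodendrocyte and astrocyte list stood at 247 summed CPM in control middle against 76.6 in cKO middle, and the cerebellar list at 601 in cKO base. The part of brain tissue in these values was not tested.

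Osteoblast genes, a list added after the values were seen, shared part of the Tmem119 pattern. All 10 were lower in control apex than base at the adjusted p (background 25.8%), 7 of them called (background of lower calls 3.2%), with a median of -1.28. Col1a1, the gene of a chain of type I collagen, gave -3.62 ± 0.022 and Ibsp, the bone sialoprotein gene, -1.23 ± 0.047. Ibsp was higher in the cKO by 0.88 in the base, 1.55 in the middle and 1.52 in the apex, and Col1a1 differed by -1.52, 1.44 and 0.85. The list as a whole did not follow Tmem119 in the base, where 5 osteoblast genes were lower and 2 higher in the cKO at the adjusted p (median -0.13; backgrounds 19.6% and 16.5%). In the middle and in the apex 9 were higher and 1 lower (medians 0.81 and 0.49). Backgrounds were 17.9% higher and 17.7% lower in the middle, and 21.8% higher and 18.8% lower in the apex. The summed list stood at 8208, 7217 and 5445 CPM in control base, middle and apex and at 9272, 7804 and 5159 in the cKO. A sum weighs genes by their level, and in base and apex it went against the median of the list between genotypes. The part of bone cells in the Tmem119 levels was not tested.

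Beside Lyve1, the perivascular macrophage gene Cd163, a haemoglobin scavenger receptor, gave 5.29 ± 0.704, 4.72 ± 0.163 and 2.54 ± 0.166 CPM along the control cochlea and 6.98 ± 0.33, 6.76 ± 0.102 and 3.27 ± 0.12 in the cKO. It was called lower in apex than base in control (-1.11 ± 0.11, edgeR adjusted p = 1.4e-10) and in the cKO (-1.13 ± 0.1, adjusted p = 1.3e-11). The cKO was higher than control for Cd163 by 0.40 in the base, 0.51 in the middle and 0.39 in the apex. Of 9 tested perivascular genes, 5 were called lower in control apex than base (median -1.11; background of lower calls 3.2%), with Cbr2 at -1.26 and Pf4, also a platelet gene, at -1.34. The summed list stood at 86.4, 85.6 and 60.7 CPM in control base, middle and apex and at 94.6, 88.4 and 80.3 in the cKO. In cKO apex Cbr2 (1.93 ± 0.078) and Pf4 (1.34 ± 0.16) were called higher than in control apex (background 2.04% in either direction). Cbr2 is also a gene of airway epithelium, and in the same comparison the airway genes Bpifa1, Cyp2f2 and Sec14l3 were called higher, and the part of airway tissue in its level was not tested.

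Lymphatic endothelium, the other known source of Lyve1, was read through 6 genes, whose summed level ran from 115 to 134 CPM and was highest in control apex, where Lyve1 was near its lowest. The sum is led by genes that other cochlear cells use too, such as Prox1 of supporting cells. Flt4, the VEGF receptor of lymphatic vessels, ran from 7.11 CPM in control apex to 19.1 in cKO base, with -1.28 ± 0.06 from base to apex in control and 0.88 ± 0.064 in cKO apex against control apex. Mmrn1, a gene of lymphatic vessels and platelets, had 34, 28 and 17 counts in control base but 2, 1 and 2 in control apex, and 22, 16 and 23 in cKO apex. With Flt4 it was called lower in control apex than base, which makes 2 of 5 tested genes of the list (background of lower calls 3.2%). Ccl21a was at 0 in all pools. The part of lymphatic vessels in the Lyve1 levels was not tested.

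**Figure D4:**
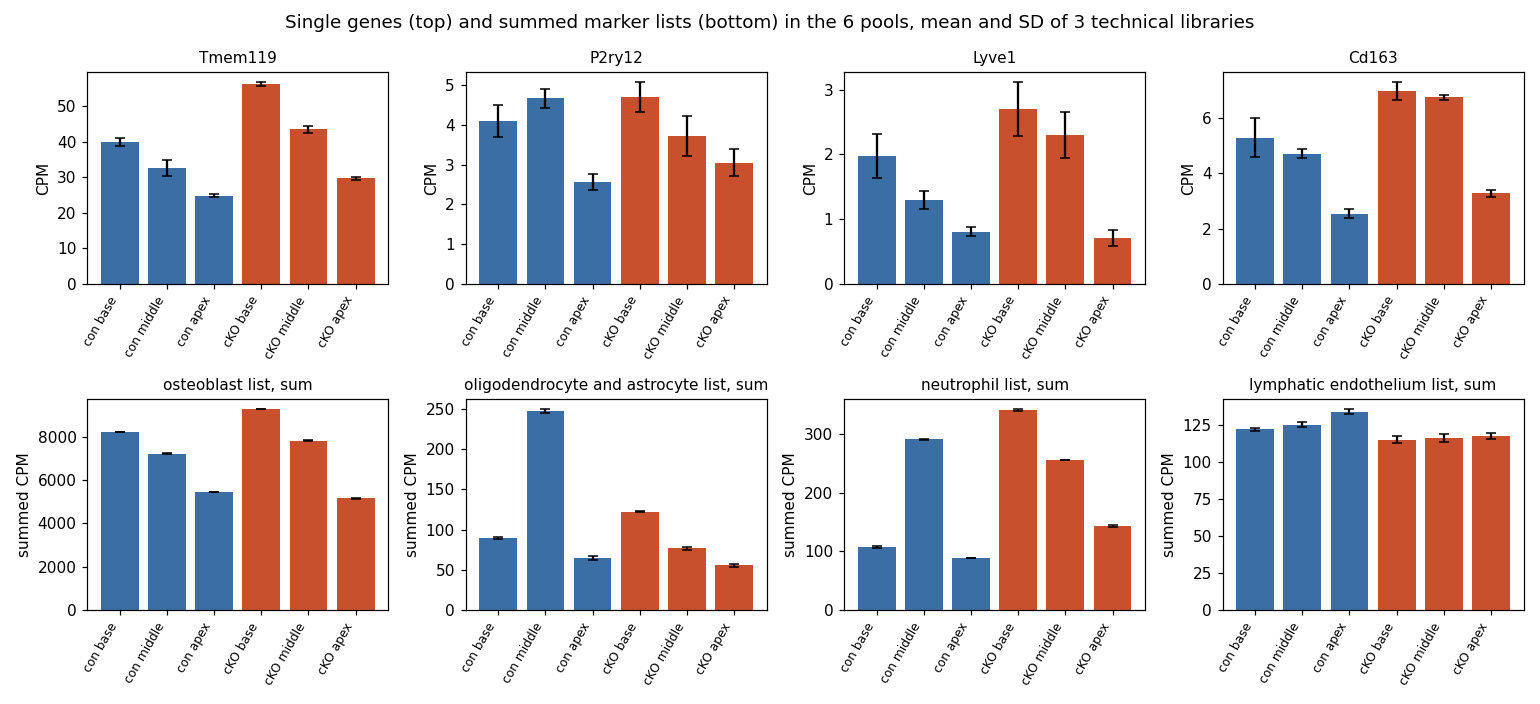
Bars show the mean CPM of single genes (Tmem119, P2ry12, Lyve1, Cd163; top) and the summed CPM of marker lists (osteoblast, oligodendrocyte and astrocyte, neutrophil, lymphatic endothelium; bottom) in the 6 pools, control in blue and cKO in red, with the SD of 3 technical libraries. Lyve1 and Cd163 are low in both apex pools, the lymphatic sum, which Prox1 and other shared genes lead, stays between 115 and 134, and the neutrophil sum is highest in cKO base at 341. The osteoblast sum weighs genes by their level, and between genotypes it went against the median of its list in base and apex.

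Other myeloid genes were also lower in the apex, but differed from the members between base and middle. Of 18 pan-macrophage and myeloid genes, 13 were lower in control apex than base (median -0.27), 17 lower than in control middle (median -0.69) and 15 lower in cKO apex than base (median -0.58) at the adjusted p, with Itgam called in the last at -1.02 (backgrounds 25.8%, 22.4% and 24.7%). In control middle against base 11 were higher and 1 lower (median 0.27; backgrounds 15.9% and 15.6%), where 0 members were higher and 2 lower. Tyrobp, a signalling adaptor of myeloid receptors, gave -0.56 ± 0.091 in control and -0.90 ± 0.087 in the cKO from base to apex. Between genotypes 11 of the 18 were higher and 2 lower in the base (median 0.31; backgrounds 16.5% and 19.6%), 9 were lower in the middle (median -0.25; 17.7%) and 3 were higher in the apex (median 0.05; 21.8%). Spi1 followed this, at 0.54, -0.35 and 0.27, the last not passing. This list shares cells with neutrophils and monocytes. From a list of 6 monocyte genes, Plac8 and Ly6c2 were called higher in cKO base than in control base (background 3.03% in either direction). The summed monocyte list stood at 135 CPM in cKO base against 128 in control base, and was highest in control apex at 167. A sum weighs genes by their level, and this one moved little between the base pools although Plac8 and Ly6c2 were called higher. It is therefore not a measure of monocytes.

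Of 8 genes of macrophage ligands and chemoattractants 5 were tested, with a median of -0.24 from control base to apex and of 0.12, 0.03 and 0.32 between genotypes in base, middle and apex. Csf1 was lower in control apex than base (-0.32 ± 0.058, edgeR adjusted p = 1.7e-05), while Il34 (-0.06 ± 0.044) and Cx3cl1 (-0.05 ± 0.026) did not pass. In the cKO apex Il34 was higher than in control by 0.32 ± 0.043, Csf1 by 0.21 ± 0.059 and Cx3cl1 by 0.08 ± 0.026, and 4 of the 5 were higher there at the adjusted p (background 21.8%). None of the ligands was called in any comparison of genotypes or regions.

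C1q works with the proteases C1r and C1s, and their genes did not follow it. C1s1 was higher in control apex than base by 0.70 ± 0.063 and C1ra by 0.27 ± 0.084, where C1qa, C1qb and C1qc were lower. C3, the central complement component, was called higher in cKO base than control base (1.14 ± 0.11, edgeR adjusted p = 1.8e-10), the only call between genotypes among 12 complement genes other than C1q. Backgrounds of calls in either direction were 3.03%, 2.72% and 2.04% in base, middle and apex. Genes of MHC class II, which present antigen on macrophages and other cells, were mostly at lower levels in the cKO base, where most members were higher: 4 of 7 were lower in the cKO and none higher (median -0.21), with H2-Aa at -0.38 ± 0.046 and Cd74 at -0.21 ± 0.031 (background 19.6% lower). In the middle 2 were lower (median -0.09; 17.7%) and in the apex 4 (median -0.31; 18.8%). Phagocytosis and lysosome genes went both ways: of 12 tested, 4 were higher and 8 lower in control apex than base (backgrounds 26.7% and 25.8%), from -1.10 for Lpl, which was called, to 0.78. Between genotypes 6 were higher in each region (backgrounds 16.5%, 17.9% and 21.8% in base, middle and apex). In the same order 4, 3 and 3 were lower (backgrounds 19.6%, 17.7% and 18.8%), with medians of 0.03, 0.04 and 0.09.

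A search over 15116 genes, each averaging 1 CPM or more, found those whose log2 CPM over the 6 pool means tracked each member best by Pearson's r, as a description over n = 6 pools. C1qb was tracked by Shisa5 (r = 0.9995), Hdac1 (0.9992) and Ephx1 (0.994), and Adgre1 by Nckap1l (0.996), Pik3cg (0.993) and mt-Nd6 (0.992). For C1qc these were C5ar2 (0.993), Mmp9 (0.992) and Cotl1 (0.991). Tmem119 was tracked best by Rev1 (0.996), Lyve1 by Rbfox3 (0.994), Mrc1 by Pde2a (0.997) and Csf1r by Serpinb1a (0.995). The best match was Trp53 for Cx3cr1 (0.993), Irak1 for Cd68 (0.997) and Ephx1 for C1qa (0.993). The 6 points share their pools with every other result given here, and the search over so many genes picks high coefficients.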

How the data were processed

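RNA from 6 pools of mouse cochlea was sequenced as 18 libraries, prepared with TruSeq v2 and Ribo-Zero reagents, per the labels' protocols. The submitters' processing notes name STAR 2.5.2b, Cuffdiff 2.2.1 and the build GRCm38/mm10, with no role for each, and the counting step and its use of strand are not given in the sources used here. The count columns, as deposited by the authors, were taken for expected counts per gene, made by the authors by an unstated step and not scaled, because 89.2% to 89.9% of the values of a library were whole within 1e-06, and they were rounded before the models. The FPKM values were deposited by the authors per library and were used for levels between genes and for ratios. CPM was computed from the count columns and their totals.

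Counts were fitted with edgeR 4.0.16 (R 4.3.3): filterByExpr, TMM (factors 0.977 to 1.03) and two-sided F tests of the quasi-likelihood kind in a design of the 6 groups (12 residual degrees of freedom). Benjamini-Hochberg adjustment ran over 17901 genes in this fit, and over 19446 genes in the fit on 6 summed pools, which was filtered separately. A call needed both an adjusted p below 0.05 and a log2 change of 1 or more in size. The standard error of a fitted log2 change is its size divided by the square root of F. For C1qb and C1qc it was smaller than counting error alone would give. It overstates their precision and need not match the p. The common coefficient of variation was 0.00988 among libraries and 0.116 in the fit on 6 summed pools, which has 2 residual degrees of freedom. Libraries of a pool differed by a chi-square of 1.19 to 1.59 per degree of freedom and were kept apart, since merging them leaves no spread. The fit was tested on simulated counts.

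The members and the 17 further gene lists were chosen with earlier results of these data known, and the osteoblast list after the values were seen. All 10 members were named. From another list up to 4 called genes of highest mean CPM were named in each comparison, or the 2 highest where none was called, besides Csf1, Il34, Cx3cl1, C1ra, C1s1, C3, Trem2, Tyrobp, Ptprc, Spi1, P2ry12, Cd163 and Fst. Values of Col1a1, Ibsp and Flt4 in comparisons outside that rule, and Ccl21a, were named after they were seen. Alternatives were DESeq2 1.42.0, no filter, a replicate block, limma 3.58.1 on log2(FPKM + 1) and log2(FPKM + 0.1), glmTreat against 0.5, a fold limit of 0.5, library totals without TMM and leaving out each library. In the fit on summed pools each replicate number was left out of all pools at once. Positions came from GENCODE M21 and promoters from RefSeq on GRCm38.p6.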

Additional observations from a re-analysis of the deposited data

Results flagged for a closer look

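The difference between cKO and control changed between regions at an adjusted p under 0.05 (edgeR interaction contrasts on libraries) for 7 of the 10 genes, none of them by a log2 value of 1 or more. Of all tested genes 33.4% passed between middle and base, 38% between apex and middle and 24.8% between apex and base, so a member that passed is no rarity in these data.

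From base to middle the genotype difference dropped for C1qb by -0.5230 (0.33 in the base, -0.19 in the middle, adjusted p = 5.04e-10), for C1qa by -0.4107 (adjusted p = 3.87e-05), for Adgre1 by -0.3869 (adjusted p = 0.00348), for C1qc by -0.3056 (adjusted p = 0.000126) and for Csf1r by -0.2384 (adjusted p = 2.06e-05). From middle to apex it went up for C1qc by 0.4232 (-0.17 to 0.25, adjusted p = 1.96e-06), for C1qb by 0.3734 (adjusted p = 1.91e-06), for C1qa by 0.3284 (adjusted p = 0.00106) and for Csf1r by 0.1987 (adjusted p = 0.000418). Both contrasts use the 2 middle pools, so they are not independent. Over the same regions the summed neutrophil genes stood at 341 against 107 CPM in cKO and control base, 255 against 290 in the middle and 143 against 88.7 in the apex, and their part in the swing of the C1q genes was not tested.

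Lyve1 went the other way between middle and apex, with a change of -0.9811 ± 0.32 (0.82 in the middle, -0.16 in the apex, adjusted p = 0.0149). The genotype difference of Tmem119 was smaller in the apex than in the base by -0.1989 ± 0.055 (0.29 against 0.49, adjusted p = 0.00577), while it was positive in both.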

How the results depend on the processing

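Of 1920 recomputed member values, 1852 kept their direction and their side of the threshold. DESeq2, no filter, log2(FPKM + 0.1) and the replicate block moved no count of called members. On log2(FPKM + 1), which compresses low levels, Lyve1 was not called and the count was 0 in place of 1 in control apex against base, cKO apex against base and cKO apex against middle. With glmTreat the count was 2 in both apex-base comparisons, by the addition of Tmem119. With a fold limit of 0.5 it was 5 in control apex against base, 4 in control apex against middle, 6 in cKO apex against base and 3 in cKO apex against middle, and 1 in place of 0 in control middle against base, in cKO against control middle, and in the genotype difference of apex less middle and of middle less base. Lyve1 in the genotype difference of apex less middle was called without TMM (1 member, -1.02) and without control middle replicate 3, control apex replicate 3, cKO middle replicate 1 or cKO apex replicate 2 (0 to 1 members over all libraries left out, Lyve1 from -1.14 to -0.87). The sign turned for 13 values of at most 0.0576 in size, when libraries were left out (lowest to highest value). With single libraries left out these were in cKO against control base Cd68 -0.154 to 0.0421 and Cx3cr1 -0.0600 to 0.00957, in cKO against control apex Cx3cr1 -0.111 to 0.0195 and Cd68 -0.0368 to 0.124, in control middle against base Cx3cr1 -0.0232 to 0.0452 and C1qc -0.0153 to 0.0610, in the genotype difference of apex less base Cx3cr1 -0.0831 to 0.0480 and Cd68 -0.0149 to 0.182 and Mrc1 -0.0166 to 0.0838, of apex less middle Mrc1 -0.0359 to 0.0672, and of middle less base Mrc1 -0.0188 to 0.0709. In the fit on 6 summed pools the same-numbered library of every pool was left out at once. There Cd68 ran from -0.0953 to 0.0177 and C1qa from -0.0174 to 0.0421. Without TMM, Mrc1 of apex less middle was -0.018.

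The replicate numbers of the labels mark technical libraries. Correlations of same-numbered libraries' deviations between pools ran from -0.068 to 0.21 (median 0.0086, 4 of 45 above 0.1), so the numbers do not pair the samples, and with the replicate block the counts of called members were 1, 1 and 1 in the comparisons with Lyve1 called and 0 in the others. Lyve1 had 17 to 89 counts per library, the fewest of the 10 genes, which limits the precision of its values, and 1 pool per group limits every comparison.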
